A study of Mus musculus with 10 samples.

Results

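Elastin and the genes that assemble it into elastic fibres were followed in mouse lung through 10 genes, Eln, Fbn1, Fbln2, Fbln5, Lox, Loxl1, Mfap4, Mfap5, Emilin1 and Ltbp4. The genes were taken by symbol from the 17465 genes that had a value in all 10 libraries, and all 10 were found and tested. The libraries were 3 of HE, 4 of Hy and 3 of C. All carried the same genotype label, WT, and the same treatment text, which speaks of exercise slowing pulmonary hypertension caused by hypoxia. Going by the series title, HE would be hypoxic mice under aerobic exercise, Hy hypoxic mice with pulmonary hypertension and C wild-type mice, but no label spells the prefixes out, so the groups keep these names. Age, sex, length of hypoxia and exercise schedule were not given in the sources used here. No label ties a library to an animal of its own; p-values therefore reflect library-to-library spread alone, part of which may be technical.

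Elastic fibres give arteries, airways and alveolar walls their recoil. The soluble monomer tropoelastin, the product of Eln, is laid onto a scaffold of microfibrils, whose backbone is fibrillin-1, and lysyl oxidases cross-link it into an insoluble core. Fibulins, emilins, microfibril-associated proteins and latent TGF-beta binding proteins help to place the elastin or sit at the surface of the fibre, and in lung arteries under high pressure elastin of the vessel wall is known to be remodelled.

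Library totals ran from 16560649 to 17804039 estimated counts, and the members had between 239 (Fbln2 in C3) and 52702 (Mfap4 in HE1) counts per library. Markers of lung tissue were present throughout, since all 9 epithelial and all 6 endothelial markers had counts in every library. The C libraries had values for another set of genes (18713 genes with values, against 17956 in HE and Hy). They thus appear to have been tabulated separately, although no label states this. A difference between C and either other group therefore cannot be told apart from an effect of such a tabulation. C1, Hy4 and HE3 had the highest sums of 9 heart muscle markers in their groups. These were 1612 CPM (counts per 1000000, with TMM-scaled library sizes) in HE3, 2414 CPM in Hy4 and 1580 CPM in C1. The other 7 libraries had 45.4 to 664 CPM. C1 and HE3 were also highest in 6 adipocyte markers (205 and 97.6 CPM, against 7.92 to 25.2 CPM in the other libraries). The source of this RNA was not tested. Hy2 and Hy4 stood apart in neutrophil RNA (1548 and 2684 CPM over 9 markers, against 95.1 to 291 CPM in the other libraries). For the members, values without these libraries are given where that changes a call. For other genes they are given as counts, with values for some.

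Emilin1, a glycoprotein of the fibre surface, was higher in HE and in Hy than in C, and Mfap4, a microfibril-associated protein, was higher in HE than in C. Eln was at 257 CPM in HE and 465 CPM in Hy on average, a difference that did not pass the test over all genes. In HE against C, edgeR called 3 of the 10 genes higher (Mfap4, Emilin1 and Ltbp4) and none lower at an adjusted p below 0.05, that is 30.0% of the members, beside 20.4% of all 14766 tested genes (11.7% higher and 8.66% lower). In Hy against C it called Emilin1 higher and Fbln5 lower, 2 of 10 genes or 20.0%, beside 26.1% of all genes (15.1% higher and 11% lower). HE against Hy gave 0 called members and 0 called genes in all, a background of 0%, and 1 member, Eln, had an unadjusted p below 0.05, as did 4.97% of all genes. DESeq2 called 1 member there (Eln, with 0.325% of all genes called) and limma-voom 0. In HE against C DESeq2 called 5 members (27.2% of all genes) and limma-voom 3 (20.4%), and in Hy against C 7 (32.4%) and 2 (25.1%). The median log2 fold change of the 10 genes was 0.08 in HE against Hy, 0.41 in HE against C and 0.52 in Hy against C, where the medians over all genes were -0.01, 0.02 and 0.03. HE against C and Hy against C share the C libraries, and each shares a group with HE against Hy.

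**Figure D1:**
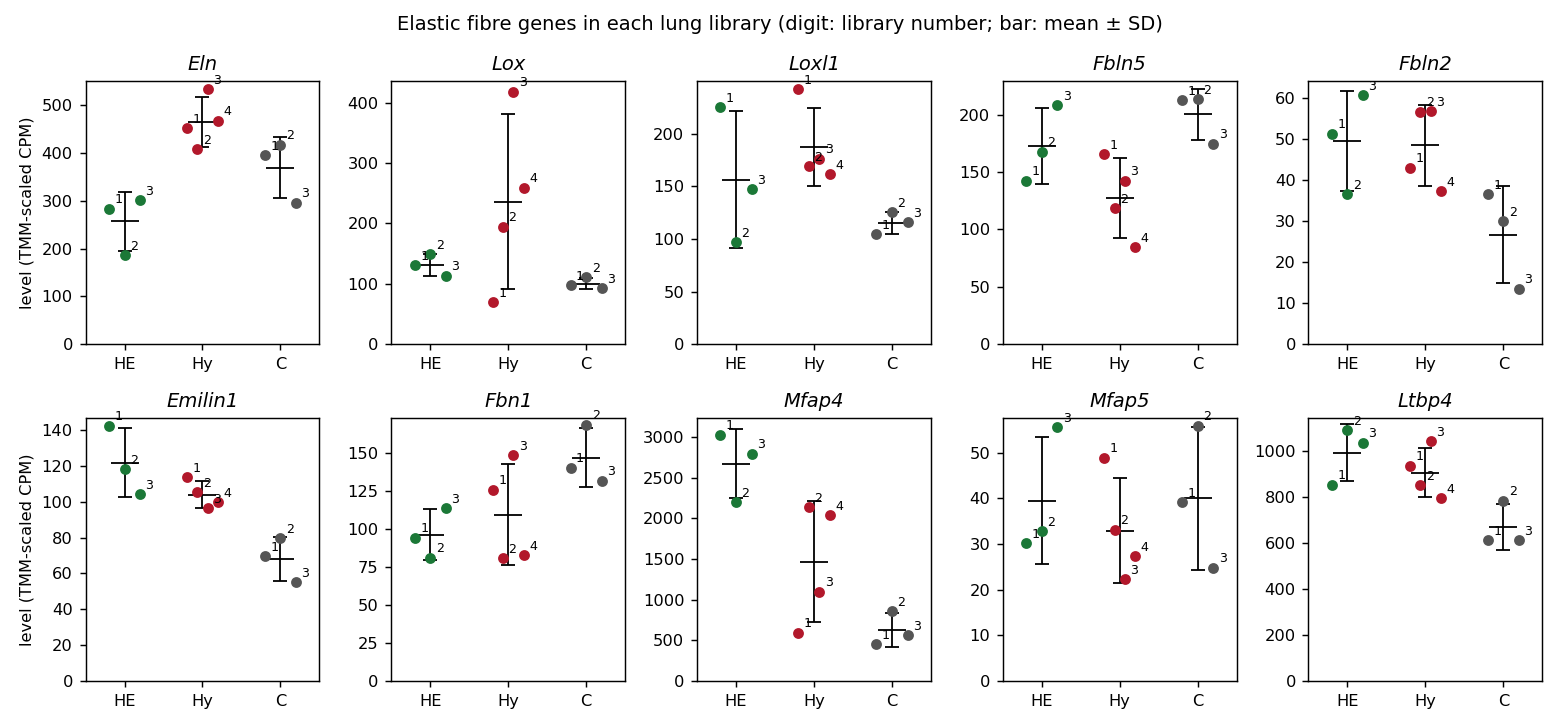
Level of each gene in each library on a linear axis of TMM-scaled CPM, with HE, Hy and C from left to right; points are libraries, digits their numbers and bars the mean ± SD. Eln was below 301 CPM in every HE library and at or above 408 CPM in every Hy library, and Mfap4 spread from 592 to 2136 CPM within Hy.

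Eln, which encodes tropoelastin (chromosome 5, positions 134702595 to 134747368, GRCm38.p6), had 284, 186 and 301 CPM in HE1 to HE3. It had 452, 408, 533 and 468 CPM in Hy1 to Hy4, and 395, 417 and 296 CPM in C1 to C3. Every HE library was below every Hy library, while C overlapped both. Means were 257 ± 61.9 CPM in HE (SD, n = 3), 465 ± 52.0 CPM in Hy (SD, n = 4) and 369 ± 64.5 CPM in C (SD, n = 3). In HE against Hy the log2 fold change was -0.86 (SE 0.20, 95% interval -1.29 to -0.42), with an unadjusted p of 0.00127 and an edgeR adjusted p of 0.687 over all genes. DESeq2 gave the same fold change and an adjusted p of 0.0099, the lowest over 20 alternatives, of which no other called Eln. The fold change itself lay between -0.98 and -0.67 in all of them. HE against C gave -0.52 (SE 0.21, edgeR adjusted p = 0.0951, DESeq2 adjusted p = 0.0395), and Hy against C gave 0.33 (95% interval -0.09 to 0.76, adjusted p = 0.223). In RNA from bulk lung tissue, fewer cells of a type and less RNA per cell cannot be told apart. Smooth muscle cells, a source of elastin in vessel walls, had summed levels of 9 markers between 1365 and 1613 CPM in HE, 1275 and 2250 CPM in Hy and 653 and 1112 CPM in C. All 9 were detected in every library, and the list was chosen with earlier results of these data known. Of them 4 were called higher in HE against C (Myh11, Tagln, Lmod1 and Smtn, 44.4%) and 6 in Hy against C (these and Acta2 and Des, 66.7%), beside 20.4% and 26.1% of all genes called. None was called in HE against Hy, where edgeR called 0 genes in all, and none had an unadjusted p below 0.05 there. Of the 9 markers, 8 had folds below 0 in HE against Hy and 1 above. Their median log2 fold change was -0.32, beside -0.01 over all genes. The part of smooth muscle RNA in the values of Eln, and in those of Emilin1 and Mfap4 below, was not tested. An antisense gene, Gm30003, shares 267 exonic bases with Eln, and reads there are uncertain because strand was not stated to be kept.

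The lysyl oxidases Lox and Loxl1, which cross-link elastin, were uneven among the Hy libraries or the HE libraries and were not called in any of the 3 comparisons. Lox (chromosome 18, positions 52516060 to 52529867) had 131, 149 and 113 CPM in HE, then 70.0, 195, 418 and 259 CPM in Hy1 to Hy4, and 97.6, 111 and 92.5 CPM in C. Hy1 was the lowest of all 10 libraries and Hy3 the highest, a 5.98-fold range within 1 group, while the C libraries lay close together. The log2 fold change in Hy against C was 1.23 (SE 0.45, 95% interval 0.24 to 2.22, edgeR adjusted p = 0.0655). It was called by DESeq2 (adjusted p = 0.0159) and by edgeR without Hy1 (log2 fold change 1.54, adjusted p = 0.00455), and was 0.79 without Hy3 (adjusted p = 0.129). HE against Hy gave -0.84 (SE 0.44, adjusted p = 1.00), with Hy1 below all HE libraries and the other 3 Hy libraries above them.

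Loxl1, the lysyl oxidase that is most tied to elastin (chromosome 9, positions 58287723 to 58313212), had 225, 96.8 and 147 CPM in HE, 242, 169, 176 and 161 CPM in Hy, and 104, 125 and 116 CPM in C. All Hy libraries were above all C libraries, and HE2 was below all of C. Hy against C gave 0.70 on the log2 scale for Loxl1 (SE 0.26, edgeR adjusted p = 0.0672). DESeq2 (adjusted p = 0.0318), a fit of Hy and C alone (0.0299) and fits without HE1 (0.0319) or HE2 (0.0325) called it.

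Fibulin-5, which binds tropoelastin and carries it to the microfibrils, was the 1 member that edgeR called lower in any comparison. Fbln5 (chromosome 12, positions 101746565 to 101819119) had 142, 168 and 208 CPM in HE, 165, 118, 142 and 84.3 CPM in Hy, and 212, 213 and 175 CPM in C. The Hy libraries lay below all C libraries, and HE overlapped both groups. Fbln5 fell in Hy against C with a log2 fold change of -0.65 (SE 0.22, edgeR adjusted p = 0.0497). That fit did not pair libraries. An alternative with a block for the library number, in HE, Hy and C alike, gave a fold change of -0.50 (adjusted p = 0.134). The unpaired call, at the edge of the threshold, was held by 7 of 19 alternatives. It was lost without any 1 of HE1, HE2, HE3, Hy2, Hy4, C1, C2 and C3 (adjusted p = 0.0571, 0.0684, 0.0551, 0.106, 0.0888, 0.128, 0.14 and 0.0796). Without C1, Hy4 and HE3 together it was 0.209, without Hy2 and Hy4 it was 0.226, and with Hy and C alone 0.0742. Dpp4 was the 1 of 9 adventitial fibroblast markers called lower in Hy than in C, that is 11.1%, beside 11% of all genes. The summed level of the 9 markers was 1094 to 1191 CPM in Hy and 1063 to 1380 CPM in C. Their part in the Fbln5 values was not tested.

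The other fibulin, Fbln2 (chromosome 6, positions 91212460 to 91272540), which is found in elastic fibres and basement membranes, had 51.4, 36.6 and 60.9 CPM in HE. It had 43.1, 56.8, 56.9 and 37.4 CPM in Hy and 36.6, 30.1 and 13.6 CPM in C. Both HE and Hy lay above C, HE2 and C1 being level after rounding. Log2 fold changes were 0.89 in HE against C (SE 0.33, edgeR adjusted p = 0.0809) and 0.86 in Hy against C (SE 0.31, adjusted p = 0.067). DESeq2 called both (adjusted p = 0.0398 and 0.0278). Fbln2 thus had folds above 0 in Hy against C, and Fbln5 below 0.

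Emilin-1, a glycoprotein between elastin and microfibrils that also restrains TGF-beta maturation, was higher than in C in both other groups. Emilin1 (chromosome 5, positions 30913387 to 30921279) had 143, 118 and 104 CPM in HE, 114, 105, 96.4 and 99.8 CPM in Hy, and 69.7, 79.8 and 55.2 CPM in C. No HE or Hy library reached down to C. The means were 122 ± 19.3 CPM in HE (SD, n = 3), 104 ± 7.60 CPM in Hy (SD, n = 4) and 68.2 ± 12.4 CPM in C (SD, n = 3). It rose in HE against C by 0.84 on the log2 scale (SE 0.16, edgeR adjusted p = 0.00867) and in Hy against C by 0.61 (SE 0.15, adjusted p = 0.0175). The first call held in 18 of 19 alternatives and was lost without C1, Hy4 and HE3 together (0.0578). The second held in 15 of 19. It was lost without C1 (adjusted p = 0.0545), without C3 (0.0746), without Hy2 and Hy4 (0.0884) and without C1, Hy4 and HE3 (0.115), with fold changes of 0.47 to 0.73 over all of them. HE and Hy overlapped, and their difference was 0.23 (95% interval -0.10 to 0.56, adjusted p = 1.00).

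Mfap4 showed the greatest span of the members. The gene (chromosome 11, positions 61485431 to 61488708) encodes a secreted glycoprotein that binds fibrillin-1 and tropoelastin. Its levels were 3030.2, 2197 and 2795 CPM in HE1 to HE3, against 592, 2136, 1098 and 2039 CPM in Hy1 to Hy4 and 453, 856 and 563 CPM in C1 to C3. All 3 HE libraries were above every other library, HE2 only just above Hy2, while Hy1 lay within the range of C. In HE against C Mfap4 rose by 2.10 on the log2 scale, or 4.29-fold (SE 0.44, edgeR adjusted p = 0.0119). Over 19 alternatives the fold change stayed between 1.88 and 2.40, and the call was lost in 2: leaving out C3 (adjusted p = 0.0546), and leaving out C1, Hy4 and HE3 (0.0991). HE against Hy gave 0.87 (SE 0.40, 95% interval -0.01 to 1.74, unadjusted p = 0.0523, adjusted p = 1.00). Hy against C gave 1.23 (SE 0.41, adjusted p = 0.0501), just outside the threshold. DESeq2 (0.00785), a filter at 1 CPM (0.0491) and edgeR without Hy1 (0.0106) or Hy3 (0.0403) called it, and without Hy2 and Hy4 the fold change was 0.42 (0.462).

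Of the exonic bases of Mfap4, 89 lie within exons of Mapk7 on the other strand, where reads cannot be assigned by strand either. Mapk7 itself had 45.1 to 51.5 CPM in HE, 46.7 to 70.3 CPM in Hy and 30.4 to 36.8 CPM in C, far under Mfap4. The summed level of 7 alveolar fibroblast markers was 5289 to 6853 CPM in HE, 4384 to 5678 CPM in Hy and 3487 to 4962 CPM in C, with Inmt giving 51.0% of it. Of these 7 markers, 2 (Tcf21 and Col13a1) were called higher in HE against C and in Hy against C. That is 28.6% in each, beside 20.4% and 26.1% of all genes called. Their part in the Mfap4 values was not tested.

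Within single libraries, where scaling plays no part, the CPM of Mfap4 was 9.29 to 11.8 times that of Eln in HE, 1.31 to 5.24 times in Hy and 1.15 to 2.05 times in C. The HE libraries stood clear of all others in this ratio, which was chosen after the values were seen and was not tested.

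Fibrillin-1 and Mfap5, the remaining parts of the microfibril, were called in no comparison. Fbn1 (chromosome 2, positions 125300594 to 125506485) had 94.2, 81.1 and 114 CPM in HE, 126, 80.8, 149 and 82.8 CPM in Hy, and 140, 169 and 132 CPM in C. All HE libraries lay below all C libraries, and Hy fell into a pair near HE (Hy2 and Hy4) and a pair that reached the range of C or came close to it (Hy1 and Hy3). HE against C gave Fbn1 a log2 fold change of -0.61 (SE 0.24, edgeR adjusted p = 0.0971), which was called in a fit of HE and C alone (0.0149), without Hy3 (0.0369) and without Hy2 and Hy4 (0.0324). Hy against C gave -0.42 (adjusted p = 0.18) and was called without Hy3 (-0.62, adjusted p = 0.0309). A predicted gene on the other strand, Gm9913, shares 2442 exonic bases with Fbn1 in the GENCODE annotation, so reads there are uncertain. Mfap5 (chromosome 6, positions 122513584 to 122529290), which binds fibrillins and carries growth factors, had 30.2, 32.8 and 55.5 CPM in HE, 48.9, 33.1, 22.3 and 27.3 CPM in Hy, and 39.1, 55.9 and 24.8 CPM in C. The groups overlapped in every pairing. Its fold changes were 0.26, -0.02 and -0.28 in HE against Hy, HE against C and Hy against C, with 95% intervals of -0.48 to 1.00, -0.81 to 0.78 and -1.02 to 0.46.

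Ltbp4, the latent TGF-beta binding protein that directs fibulin-5 and elastin onto microfibrils, was among the more abundant members. The gene (chromosome 7, positions 27305140 to 27339720) had 855, 1092 and 1038 CPM in HE, 938, 852, 1044 and 796 CPM in Hy, and 613, 784 and 613 CPM in C. Both HE and Hy lay above C. Ltbp4 rose in HE against C by 0.57 on the log2 scale (SE 0.17, edgeR adjusted p = 0.0385), and the value in Hy against C was 0.44 (SE 0.16, adjusted p = 0.0652, DESeq2 adjusted p = 0.0231). Of 19 alternatives 8 kept the HE call. It was lost without any 1 of HE1, HE2, HE3, Hy2, C1, C2 and C3 (adjusted p = 0.0502, 0.129, 0.0954, 0.0519, 0.125, 0.0511 and 0.139), under a replicate block (0.0608), with no filter (0.0518), without Hy2 and Hy4 (0.0505) and without C1, Hy4 and HE3 (0.238).

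Over the 10 genes, groups did not overlap for 2 genes in HE against Hy (Mfap4 higher, Eln lower), where 4.5% of all tested genes did not (2.25% higher, 2.26% lower). In HE against C it was 6 genes, 5 higher and 1 lower, beside 51.7% of all genes (26.7% higher, 25% lower). In Hy against C it was 5 genes, 4 higher and 1 lower, beside 33.7% of all genes (17.5% higher, 16.2% lower). The plot of fold changes shows how the intervals of HE against Hy sit around 0 for most members.

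**Figure D2:**
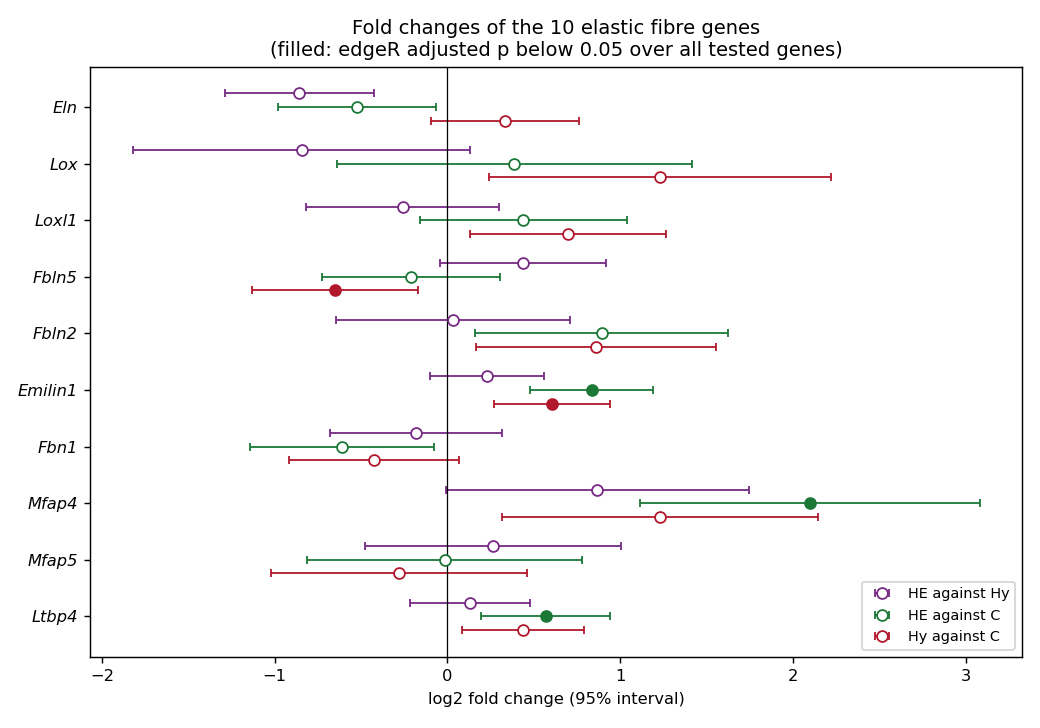
log2 fold change of each gene in the 3 comparisons on the horizontal axis, with 95% intervals from edgeR; filled points passed an adjusted p of 0.05 over all tested genes. Eln is the 1 gene whose interval in HE against Hy lies wholly off 0 (-1.29 to -0.42), and Mfap4 in HE against C lies farthest from 0 (2.10).

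The promoters of the called members were compared because Ltbp4 was called higher in 1 comparison and Fbln5 lower in another. RefSeq start sites on GRCm38.p6 were available for 5 of the 10 members, and for 3 of the 4 called ones. The windows printed are the 250 bases before a start, on the minus strand, and only those that touch no annotated exon are shown, which leaves 1 for Ltbp4 (chr7:27333664-27333913, the start of 1 of several transcripts) and 1 for Fbln5 (chr12:101819120-101819369). Capitals mark matches on either strand to GGGCGG, the GC box bound by Sp1, and to ACGTG or GCGTG, the core of the hypoxia response element.
Ltbp4: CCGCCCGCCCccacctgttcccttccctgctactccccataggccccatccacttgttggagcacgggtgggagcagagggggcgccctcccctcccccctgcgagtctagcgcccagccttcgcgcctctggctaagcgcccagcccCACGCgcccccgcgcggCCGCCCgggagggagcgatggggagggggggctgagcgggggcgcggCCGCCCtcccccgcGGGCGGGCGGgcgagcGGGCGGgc
Fbln5: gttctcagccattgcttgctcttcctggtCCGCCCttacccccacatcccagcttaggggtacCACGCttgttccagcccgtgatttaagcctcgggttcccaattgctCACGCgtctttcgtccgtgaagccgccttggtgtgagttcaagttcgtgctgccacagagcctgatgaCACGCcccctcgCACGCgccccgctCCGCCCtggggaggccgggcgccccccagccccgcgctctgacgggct
The Ltbp4 window had 7 matches to the GC box, some of them overlapping, and 1 to the hypoxia core, in 79.2% G and C. The Fbln5 window had 2 and 4 matches in 65.2% G and C. Windows at other starts, which touch exons and are not printed, differed. For Fbln5 such a window had 0 matches to the GC box and 0 to the hypoxia core. For Ltbp4 they had 3 and 0 in one and 5 and 1 in another, and for Emilin1 0 and 1. Among 32851 promoter windows of the same length, 32.7% held a GC box and 38.6% a hypoxia core, with a median of 52.4% G and C. These shares count windows with at least 1 match and were not matched for G and C. The numbers of matches per window therefore have no background here. Neither printed window held TATAAA, which 12.4% of all windows held. These are letter matches, not bound sites.

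Per kilobase of transcript, the order of levels among the members was led by Mfap4 in all 3 groups, with Ltbp4 next. Lengths came from GENCODE M21, from the transcript with the longest coding sequence, and 97.8% of tested genes had one. Mfap4 had 2848 ± 457 CPM per kilobase in HE (SD, n = 3), 1561 ± 796 in Hy (SD, n = 4) and 664 ± 222 in C (SD, n = 3), at or above the 99.7th percentile of genes in each. Ltbp4 had 185 ± 23.0 CPM per kilobase in HE, 168 ± 20.1 in Hy and 124 ± 18.4 in C. Eln had 66.6 ± 16.1 CPM per kilobase in HE, 121 ± 13.5 in Hy and 95.8 ± 16.8 in C. In HE it came after Mfap4, Ltbp4 and Fbln5 (72.9 ± 14.0), and in Hy and C after Mfap4 and Ltbp4. The ranges of Eln and Fbln5 overlapped in HE (48.3 to 78.0 and 60.0 to 87.8) and in C (76.8 to 108 and 73.6 to 90.0), but not in Hy (106 to 138 and 35.5 to 69.8). Fbn1 and Fbln2 were the lowest, at 8.06 and 10.4 CPM per kilobase in HE, 9.15 and 10.1 in Hy, and 12.3 and 5.59 in C. Of the summed length-scaled level of the 10 genes, Mfap4 made up 83.9% to 87.4% in HE, 54.3% to 82.7% in Hy and 53.3% to 65.3% in C. The share of Eln was 1.73% to 2.24% in HE, 3.85% to 10.1% in Hy and 7.76% to 11.3% in C.

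**Figure D3:**
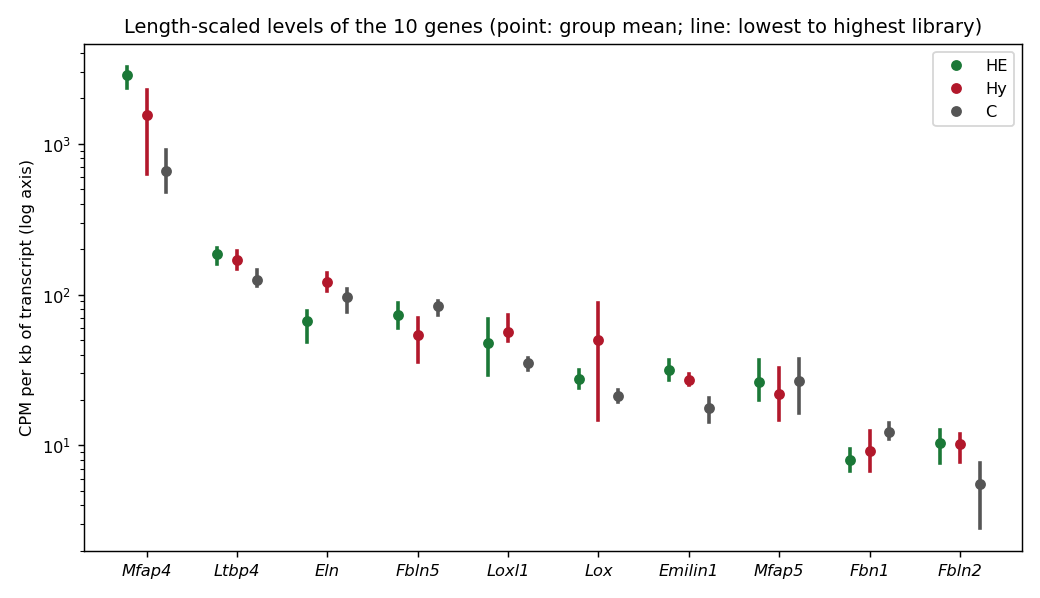
Length-scaled level of each gene, in CPM per kilobase of transcript on a log axis, with HE, Hy and C from left to right within a gene; points are group means and lines run from the lowest to the highest library. Mfap4 lies above all other members, and Eln is lower in HE (48.3 to 78.0) than in Hy (106 to 138).

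Beyond the members, Atp7a, the copper transporter that loads lysyl oxidases in the secretory pathway, was the 1 other assembly gene whose calls held in all alternatives. It averaged 30.8 ± 3.13 CPM in HE (SD, n = 3), 31.4 ± 9.06 CPM in Hy (SD, n = 4) and 77.9 ± 7.81 CPM in C (SD, n = 3). Atp7a fell in HE against C (log2 fold change -1.34, edgeR adjusted p = 0.00478) and in Hy against C (-1.31, adjusted p = 0.00253), in each case with 19 alternatives. Of 32 other assembly genes, 31 were tested. In HE against C 4 were called higher and 2 lower, 19.4% of those tested, and in Hy against C 5 were called higher and 1 lower, again 19.4%, beside 20.4% and 26.1% of all genes. Both counts of genes called higher include Mfap1b, which is known as a splicing factor despite its name. Of the 35 calls in 24 genes outside the members that follow, 4 held without C1, Hy4 and HE3, those of Atp7a and Fgf2 in both comparisons. The other 13 of 15 in HE against C were lost without them (adjusted p up to 0.119), as were 18 of 20 in Hy against C (0.0602 to 0.207). Without Hy2 and Hy4 all 15 held in HE against C, and 16 of 20 were lost in Hy against C (0.0678 to 0.449), with Atp7a, Igf1, Fgf2 and Nkx2-1 still called. All 35 fold changes kept their direction in these fits. Over all genes, leaving out C1, Hy4 and HE3 took the calls from 3013 to 509 in HE against C. In Hy against C it took them from 3850 to 360. Leaving out Hy2 and Hy4 gave 3158 calls over all genes in HE against C and 1069 in Hy against C. In HE against Hy the other assembly genes had 0 calls by edgeR. Of the 31 tested, 4 had an unadjusted p below 0.05, beside 4.97% of all genes. DESeq2 called 1 of them (Emilin2), beside 0.325% of all genes. The log2 fold change of Emilin2 there was -1.78 and lay between -2.05 and -0.68 over 20 alternatives.

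Adamts10, a metalloprotease that acts on fibrillin microfibrils, rose by log2 fold changes of 0.70 in HE against C (edgeR adjusted p = 0.0286) and 0.79 in Hy against C (0.0122). Without C1, Hy4 and HE3 these were 0.70 (0.119) and 0.63 (0.134), and without Hy2 and Hy4 Adamts10 gave 0.52 in Hy against C (0.113). The microfibril-associated ADAMTS-like genes Adamtsl2, Adamtsl4 and Adamtsl5 gave 1.11, 0.53 and 0.85 in HE against C (adjusted p = 0.0162, 0.092 and 0.00688), and 0.68, 0.58 and 0.56 in Hy against C (0.06, 0.0493 and 0.0198). Vcan, a large proteoglycan whose presence is known to hinder elastic fibre formation, fell in HE against C by 2.09 on the log2 scale (adjusted p = 0.0201) at a low level (2.52 ± 1.16 CPM in HE and 10.8 ± 3.81 CPM in C, SD, n = 3 each). Mfap1b, called higher in both (0.57 and 0.45, adjusted p = 0.0128 and 0.0194), is known as a splicing factor despite its microfibril name and has a near-identical copy, Mfap1a, so its count is uncertain. Emilin2 rose in Hy against C (1.48, adjusted p = 0.0433) with 50.4 and 75.7 CPM in Hy2 and Hy4, the libraries high in neutrophil markers, and 21.3 and 16.9 CPM in Hy1 and Hy3. Without Hy2 and Hy4 its fold change was 0.36 (adjusted p = 0.395).

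Proteases that cut elastin and their inhibitors were called, in both directions, at shares near those of all genes. Of 25 such genes 20 were tested, and 3 were called higher and 1 lower in HE against C (20.0%), and 5 higher and 1 lower in Hy against C (30.0%), beside 20.4% and 26.1% of all genes. HE against Hy had 0, with 4 of the 20 genes at an unadjusted p below 0.05, beside 4.97% of all genes. Serpina1a and Serpina1b, copies of the gene for alpha-1 antitrypsin, the main inhibitor of neutrophil elastase, rose in HE against C, with log2 fold changes of 2.26 (adjusted p = 0.00503) and 1.89 (0.00931). In Hy against C they rose by 1.44 (0.017) and 1.43 (0.0167). Serpina1c gave 1.77 in HE against C (0.0238) and 1.16 in Hy against C (0.0702). These copies are near-identical, so reads may be split among them. Mmp12, the macrophage elastase, fell in HE against C by 1.77 on the log2 scale (adjusted p = 0.0488). It gave -1.05 in Hy against C (0.145), at 1.83 ± 0.642 CPM in HE, 3.03 ± 1.98 CPM in Hy and 6.27 ± 2.26 CPM in C. Mmp2, gelatinase A, fell in Hy against C (-0.67, adjusted p = 0.0398), and Slpi, a secreted inhibitor of neutrophil elastase, rose there (1.195, adjusted p = 0.0243). Neither was called without Hy2 and Hy4, the libraries high in neutrophil markers, where Mmp2 gave -0.50 (0.241) and Slpi 1.27 (0.0969), or without C1, Hy4 and HE3 (0.173 and 0.182).

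Mmp9 and Prtn3, whose products neutrophils store in granules, rose in Hy against C, Mmp9 by 2.50 (adjusted p = 0.0282) and Prtn3 by 2.11 (0.0494) on the log2 scale. Mmp9 had 8.57 to 10.7 CPM in HE, 16.2, 65.0, 15.3 and 119 CPM in Hy1 to Hy4, and 6.76 to 14.7 CPM in C. Without Hy2 and Hy4 neither was called (0.72 and 0.90, adjusted p = 0.197 and 0.449). Prtn3 averaged 0.787 CPM in HE, 0.839 CPM in Hy and 0.19 CPM in C, and stayed below 1.34 CPM in every library. In HE against C it gave a log2 fold change of 2.01 (edgeR adjusted p = 0.0762), close to that in Hy against C.

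Among 14 ligands and factors that were listed as regulators of elastin, all tested, 2 were called higher and 3 lower in HE against C (35.7%). In Hy against C 5 were called higher and 3 lower (57.1%), where 20.4% and 26.1% of all genes were called in these comparisons. The list was chosen with earlier results of these data known, so these shares are not a test of it. Without C1, Hy4 and HE3 only Fgf2 of the list stayed called in either comparison. Without Hy2 and Hy4 only Igf1, Fgf2 and Nkx2-1 of the list stayed called in Hy against C. HE against Hy had 0 calls, with 2 of the 14 genes at an unadjusted p below 0.05 and 1 called by DESeq2 (Il1b). Over all genes these shares were 4.97% and 0.325%. Igf1, which raises elastin synthesis, fell by 1.26 in HE against C (adjusted p = 0.0273) and by 1.63 in Hy against C (0.0061), as log2 fold changes. Tgfb2 and Sp1, a growth factor and a transcription factor that act on Eln, fell in both, by 1.19 and 0.69 in HE against C (0.0393 and 0.0148) and by 1.21 and 0.61 in Hy against C (0.0226 and 0.0138). Tgfb1, which raises elastin synthesis, rose in Hy against C by 0.64 (adjusted p = 0.00701) and gave 0.42 in HE against C (0.0511). Klf2, a flow-responsive endothelial factor, rose by 1.49 in HE against C and 1.56 in Hy against C (0.0311 and 0.0186). It was uneven in HE, with 487, 1058 and 265 CPM in HE1 to HE3, beside 205 to 232 CPM in C. Its call in HE against C was lost without any 1 of HE1, HE2, C1, C2 and C3 (edgeR adjusted p up to 0.107). Il1b, which represses elastin, rose in Hy against C by 2.50 (0.0101), and so did Nkx2-1, a lung epithelial factor, by 0.73 (0.0186). With Hy2 and Hy4 left out, Il1b gave 1.45 (0.0751) and Tgfb1 gave 0.57 (0.0678). With C1, Hy4 and HE3 left out, Tgfb1 and Il1b both had an adjusted p of 0.104.

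Fgf2, known to repress Eln, had the greatest fold change of the list, 4.04 in HE against C and 3.95 in Hy against C (adjusted p = 0.000125 and 0.000108). Its levels were 11.4 to 12.7 CPM in HE, 6.85 to 15.2 CPM in Hy and 0.568 to 0.990 CPM in C. Nudt6, the gene that overlaps Fgf2 on the other strand, had 4.66 to 4.89 CPM in HE, 3.49 to 5.20 CPM in Hy and 3.13 to 4.84 CPM in C. The apparent separate tabulation of C would bear on this gene too, and its part was not tested. Of the 35 calls, 10 held without each library in turn, those of Atp7a and Fgf2 in both comparisons, of Adamtsl5, Serpina1a and Serpina1b in HE against C and of Tgfb1, Igf1 and Il1b in Hy against C. Of these 10, those of Atp7a and Fgf2 alone also held without C1, Hy4 and HE3. The other 25 were lost without at least 1 library, with highest adjusted p of 0.0601 to 0.158 in HE against C and 0.0542 to 0.165 in Hy against C. With the replicate block 12 of the 20 calls in Hy against C were lost (adjusted p up to 0.172), those of Mfap1b, Emilin2, Adamts10, Adamtsl4, Adamtsl5, Prtn3, Mmp2, Mmp9, Serpina1a, Slpi, Sp1 and Nkx2-1. Over all genes the block took the calls of Hy against C from 3850 to 1746.

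**Figure D4:**
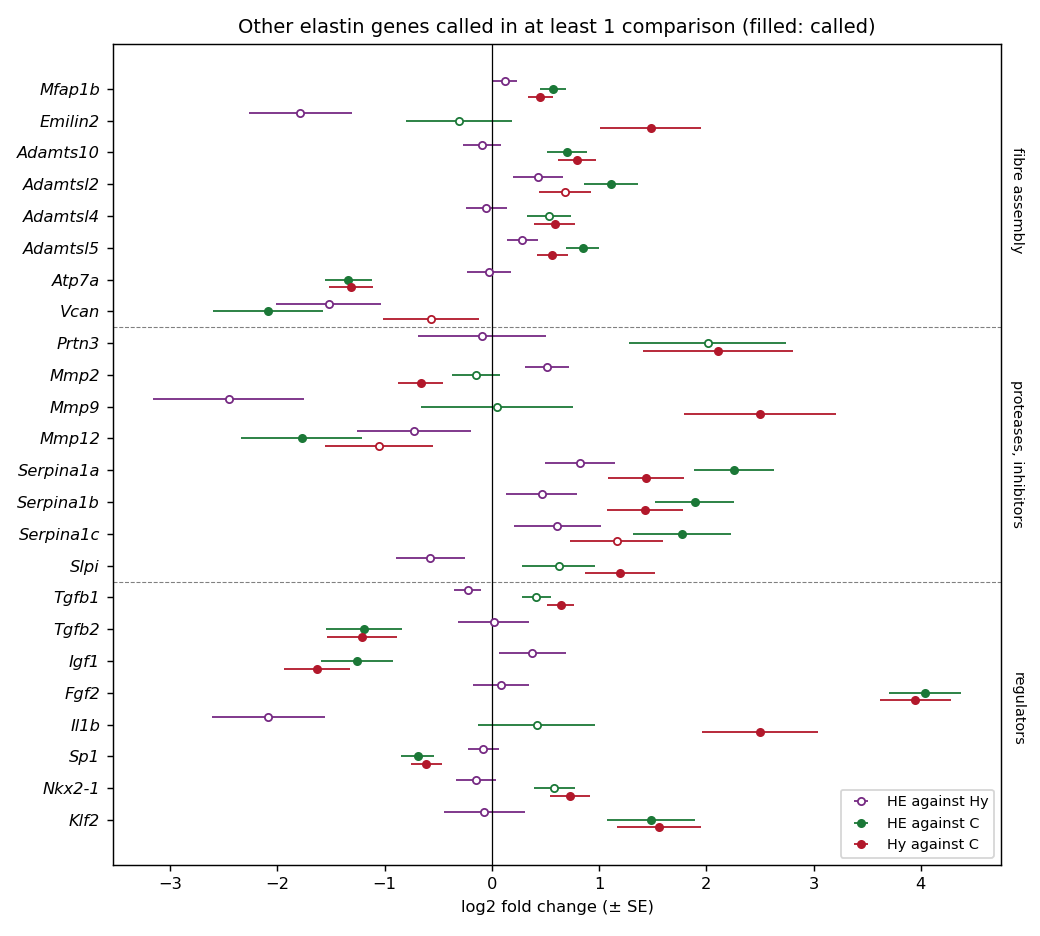
log2 fold change ± SE, on the horizontal axis, of the 24 genes outside the members that were called in at least 1 comparison, grouped into fibre assembly, proteases with inhibitors, and regulators; filled points were called. Fgf2 lies farthest right (4.04 in HE against C), and no point of HE against Hy is filled.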

How the data were processed

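Polyadenylated RNA of lung tissue was sequenced in 10 libraries. Per the labels' protocols, Trizol extraction of lung ground in liquid nitrogen was followed by oligo(dT) selection. Each deposited file holds the authors' estimated counts by gene, without normalisation. The submitters' processing notes name HISAT2 2.0.4, Bowtie2 2.2.5, RSEM 1.2.12, DESeq 1.4.5 and GRCm38.p6, with no roles. Of strandedness and annotation release the sources used here say nothing.

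Entrez identifiers were named from RefSeq on GRCm38.p6, which named 19150 of 19204 genes with a value. The 17465 shared genes were rounded to whole counts, filtered with edgeR's filterByExpr (14766 kept) and fitted in 1 model of 3 groups with edgeR 4.0.16 (R 4.3.3), with TMM scaling and a robust quasi-likelihood fit that left 7 residual degrees of freedom. A gene was called at a Benjamini-Hochberg adjusted p below 0.05 over all tested genes. SE is the absolute log2 fold change divided by the square root of F, and 95% intervals use edgeR's total degrees of freedom. The fit was tested on simulated data.

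Alternatives were DESeq2 1.42.0, limma-voom (limma 3.58.1), RLE scaling, testing every gene, a minimum of 1 CPM in 3 libraries, only the groups compared, a replicate block, each library left out, 2 sets of libraries left out and, for HE against Hy, all genes with values in HE and Hy. Same-numbered libraries of Hy and C deviated together from their group means (correlations 0.12, 0.26 and 0.14), all over the 0.1 set for pairing, although no label states pairs. HE did not pair with either (-0.29 to 0.17). Hy4 has a number of its own and adds nothing within the block.

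The members and gene lists were chosen with earlier results of these data known. Genes named outside the members are every member of 3 lists (assembly, proteases and inhibitors, regulators) called in any comparison. The 5 genes nearest to Eln by correlation are also named. Fold changes near 0 counts depend on the prior count. Counting intervals would cover counting error only, since PCR reads are not independent molecules.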

Additional observations from a re-analysis of the deposited data

Results flagged for a closer look

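In Hy, 1 library lay far from the others for 1 of 34 genes looked at. Adamtsl5, a microfibril-associated ADAMTS-like gene, had 87.55 CPM in Hy4, with the nearest Hy library at 70.0 CPM. The gap was 0.847 of the group's range, where 0.829 is the limit for 4 libraries. Chance alone marks about 1 in 20 such groups.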

How the results depend on the processing

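The number of members called was 3 in HE against C, 2 in Hy against C and 0 in HE against Hy. DESeq2 called 5, 7 and 1. Without C1, Hy4 and HE3 the count was 0 in HE against C and 0 in Hy against C, and without Hy2 and Hy4 it was 0 in Hy against C. With the replicate block it was 1 in Hy against C. Leaving out 1 library gave 1 to 4 in HE against C, 0 to 4 in Hy against C and 0 in every such fit of HE against Hy. Over all genes, the 3013 calls of HE against C became 509 without C1, Hy4 and HE3 and 5408 with only the 2 groups, and ran from 1013 to 4711 with 1 library left out. The 3850 calls of Hy against C became 360 without C1, Hy4 and HE3, 1069 without Hy2 and Hy4 and 1746 with the replicate block, and ran from 1680 to 5972 with 1 library left out. The 0 calls of HE against Hy became 48 with DESeq2, 1 without HE1, 6 without Hy3 and 1 without Hy2 and Hy4.

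Among member fold changes under alternatives, 517 kept direction and side of the threshold, 30 lost a call, 19 gained one and 14 changed sign, all 14 in Fbln2 or Mfap5 and none of them called. Fbln2 in HE against Hy was -0.0793 with the replicate block, -0.139 without HE3, -0.0203 without Hy1, -0.0738 without Hy4, -0.246 without C1, Hy4 and HE3 and -0.0054 without Hy2 and Hy4, with -0.139 to 0.21 when 1 library was left out. Mfap5 in HE against Hy was -0.0631 without HE3 and -0.144 without C1, Hy4 and HE3, with -0.0631 to 0.52 when 1 library was left out. In HE against C Mfap5 was 0.0085 with limma-voom, 0.0525 with the replicate block, 0.144 without HE1, 0.101 without HE2 and 0.304 without C2 (-0.34 to 0.304 when 1 library was left out). In Hy against C it was 0.0407 without C2 (-0.53 to 0.0407). The cause of these changes was not tested. Apart from the calls given with the results, the block changed no call of a member. RLE factors moved the median of all genes by less than 0.1 on the log2 scale. Depth limits Prtn3 most, which stayed below 1.34 CPM, while no member had fewer than 239 counts in a library.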

Other observations

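The genes whose levels followed Eln most closely over the 10 libraries, among 11615 genes with at least 5 CPM on average, were Serpinb1a, Exoc6, Rin1, Ifi204 and Tnfrsf12a. Their Pearson correlations with Eln on the log2 scale were 0.88, 0.87, 0.86, 0.85 and 0.84, and their Spearman correlations 0.92, 0.82, 0.81, 0.78 and 0.85. The points share libraries and groups, so these are descriptions without a test. Serpinb1a, an inhibitor of neutrophil elastase, had 11.6 to 20.5 CPM in HE, 21.6 to 30.6 CPM in Hy and 16.3 to 20.9 CPM in C. It was lower in every HE library than in every Hy library, as were 2.26% of all tested genes. Its log2 fold change was -0.57 (edgeR adjusted p = 0.827). Serpinb1a was picked for following Eln over these same libraries, so sharing this order with Eln is partly built in. Tnfrsf12a, the TWEAK receptor gene, had 19.8 to 36.0 CPM in HE, 29.1 to 56.6 CPM in Hy and 27.8 to 38.4 CPM in C, with overlapping groups in HE against Hy (-0.73, adjusted p = 0.787).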
